A study of Mus musculus with 65 samples.

Results

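The RNA of p2 progenitors, which form the V2 interneurons of the ventral spinal cord, was compared between cultures that had received 100 nM and 10 nM of SAG. The comparison takes 12 of the 65 libraries of the series: 6 at 100 nM and 6 at 10 nM, with 3 from day 5 and 3 from day 6 at each concentration. They were chosen by their labels alone, and day was kept as a block, so that day 5 was compared with day 5 and day 6 with day 6. HM1 cells, an established line of mouse embryonic stem cells, were brought to neuromesodermal progenitors by day 3 and then received retinoic acid (100 nM) and SAG together. SAG is a small molecule that switches on Smoothened, the membrane protein through which Sonic hedgehog (Shh) acts. At both concentrations, fixed cells were stained for intracellular proteins and sorted as positive for SOX2, PAX6 and NKX6.1 and negative for OLIG2 and NKX2.2. All libraries come from the same cell line in culture, and the design describes the triplicates as independent differentiations. The labels do not say whether libraries with the same replicate number share a differentiation. The question is whether cells sorted as the same progenitor type differ in RNA when the Shh agonist differs in concentration.

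In the neural tube Shh comes from the notochord and the floor plate. It binds Patched receptors, which releases Smoothened and turns Gli proteins into activators of target genes. Gli1, Ptch1 and Hhip are among these targets, and Ptch1 and Hhip in turn dampen the signal. Different levels of signal go with different transcription factors, several of which repress each other. p2 lies between pMN, the Olig2 domain that makes motor neurons, and the more dorsal p1 and p0, which use Prdm12 and Dbx1. In this series p0 and p1 were sorted as a single population, p0-1.

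The values are read counts divided by a size factor per library, called normalised reads here. Reads assigned to genes ran from 7808243 to 9982716 in the libraries at 10 nM and from 8370994 to 12228329 at 100 nM (means 8826025 and 10315098, exact two-sided permutation within day, p = 0.045, 0.12 adjusted over 3 library measures). Genes with 1 read or more numbered 12489 to 13082 at 10 nM and 10541 to 12985 at 100 nM (exact permutation p = 0.12, 0.12 adjusted). At 100 nM on day 6, replicates 1 and 3 stood apart from the other 10 libraries, with 11118 and 10541 genes, against 12617 in replicate 2. Of the 13964 genes tested, 3284 and 3786 were at 0 in these 2 libraries and 1650 to 2117 in the other 10 (exact permutation p = 0.115 over all 12, 0.12 adjusted). Where a value is given without these 2 libraries, day 6 keeps 1 library at 100 nM, which is then assumed to vary like the libraries of other groups.

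**Figure D1:**
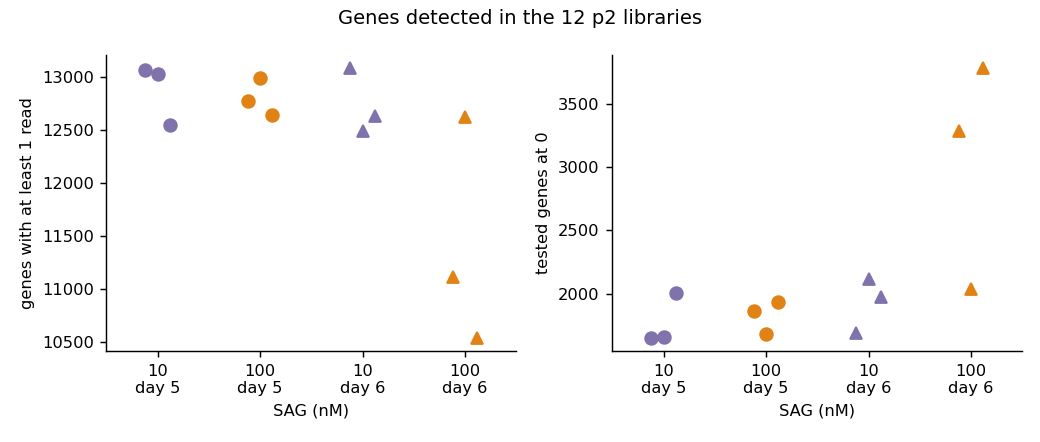
Genes with at least 1 read (left) and tested genes at 0 (right) in each p2 library, by SAG concentration and day; each point is 1 library. Replicates 1 and 3 at 100 nM on day 6, with 11118 and 10541 genes, sit below the other 10 libraries.

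Of the 5 genes whose proteins were used in the sort, Sox2, Pax6 and Nkx6-1 were detected in all 12 libraries and Nkx2-2 was at or near 0. Sox2, which marks neural progenitors, had 1120 to 2516 normalised reads at 10 nM and 1180 to 2403 at 100 nM, a log2 change of 0.04 (SE 0.29, adjusted p = 1.0). Nkx6-1, which p2 shares with the domains ventral to it, had 134.0 to 498.8 at 10 nM and 269.8 to 702.3 at 100 nM (log2 change 0.40, SE 0.68, adjusted p = 0.941). Nkx2-2, the p3 factor, was at 0 in 10 of the 12 libraries and reached 5.54 normalised reads. Pax6, which patterns the intermediate neural tube, was the lower of the sorted genes at 100 nM. Its values were 4667, 4363 and 4078 on day 5 and 4664, 4761 and 5805 on day 6 at 10 nM, and 1847, 2742 and 2450 on day 5 and 3338, 4013 and 3888 on day 6 at 100 nM. No library at 100 nM reached the lowest at 10 nM, and the means were 3046 ± 850 and 4723 ± 587 (SD, n = 6 each). With the spread shared over all 65 libraries the difference did not pass the test (log2 change −0.67, 95% interval −1.77 to 0.42, adjusted p = 0.816). The RNA of the fifth protein, Olig2, was present although cells with OLIG2 protein had been gated out, and is described with the ventral genes below. Reads of Pax6 over exons that overlap Elp4 on the other strand, and those of Nkx2-2 over Nkx2-2os, cannot be told apart, since use of the strand in counting is not stated.

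Over both days 5 genes were called different in p2 between the concentrations, all of them lower at 100 nM, which is 0.0358% of the 13964 genes tested. Calls were made with limma on log2(normalised reads + 1), and needed both a fold above 2 and a p, adjusted by Benjamini and Hochberg, under 0.01. They were Hes2, Dbx1, Fmn2, Depdc1a and D930028M14Rik. Without a fold limit and at an adjusted p below 0.05 there were 9 genes, again all lower at 100 nM. At an unadjusted p below 0.05 there were 1142, of which 309 were higher and 833 lower at 100 nM. The median log2 change of all tested genes was −0.142, so a small negative change is near the middle of the table. It was −0.157 with TMM factors and −0.0219 after quantile normalisation. Without the 2 libraries that had few genes, 7 genes were called, and 2 of the 5 were among them, Dbx1 and Hes2. In this bulk measurement fewer cells with a transcript and less of it per cell cannot be told apart.

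Dbx1, a homeodomain factor of the p0 domain (chromosome 7, 49631499 to 49636835, minus strand, mm10), was nearly absent at 100 nM. At 10 nM it had 322.9, 429.9 and 133.8 normalised reads on day 5 and 148.2, 133.6 and 1.06 on day 6. At 100 nM it had 0, 2.77 and 0.79 on day 5 and 0, 0 and 1.10 on day 6. Of the libraries at 10 nM, 5 lay far above every library at 100 nM, and the sixth, replicate 3 of day 6, lay among them. The 6 libraries at 100 nM held 5 reads in all, and the mean at 10 nM was 251 times theirs (95% exact interval 107 to 774, which covers counting error only). The fitted log2 change was −5.95 (SE 0.90, 95% interval −7.77 to −4.13, adjusted p = 2.46e-04). It was −7.14 within day 5 (adjusted p = 0.0159) and −4.75 within day 6 (adjusted p = 0.0596), with no called difference between days (−7.14 against −4.75, adjusted p = 0.903). The call was lost after quantile normalisation (adjusted p = 0.022) and in a fit of the 12 libraries alone (adjusted p = 0.303).

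In the neighbouring populations of days 5 and 6, Dbx1 had a median of 2767 normalised reads in p0-1 at 0 nM (1151 to 3475, n = 6) and of 1874 in p0-1 at 10 nM (917.1 to 2976, n = 6). In pMN at 100 nM the median was 0 and the highest value 288.5 (n = 6), and in pMN at 500 nM it was 0 in all 5 libraries. The p2 libraries at 10 nM, with a highest value of 429.9, thus all lay below the p0-1 libraries at the same concentration of SAG. Prdm12, a zinc-finger factor of the p1 domain, had the same arrangement with fewer reads. It was 131.6, 7.31 and 0 on day 5 and 361.2, 0 and 356.8 on day 6 at 10 nM, and 0 in all 6 libraries at 100 nM. Against a limit of 3 reads per library, which covers counting error only, the mean at 10 nM was at least 49.5-fold higher. Prdm12 had reads in 4 of 6 libraries at 10 nM, 1 of them at only 7.31. The fitted log2 change of Prdm12 was −4.51 (SE 1.19), with an unadjusted p of 4.07e-04 that did not pass over all genes (adjusted p = 0.141). Dbx2, the related homeodomain gene of p0 and p1, varied from 0 to 312.4 at 10 nM and from 0 to 226.7 at 100 nM, and its groups overlapped (log2 change −2.77, SE 1.57, adjusted p = 0.675). Of the 10 genes listed for p0, p1 and their V0 and V1 neurons, 5 were tested. Of these, 1 was called (Dbx1), and 2 were lower at an unadjusted p below 0.05 (Dbx1 and Prdm12). The 2 are 40% of those tested, beside 5.97% of all genes, and the median log2 change was −2.77 against −0.14 for all genes. The 5 untested genes had too few reads. Summed over the list, the libraries at 10 nM had 206 to 764 normalised reads and those at 100 nM 0 to 227.

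The sequences before the start sites of Dbx1 and Olig2 are shown because these genes of neighbouring domains stood on opposite sides of the comparison. Each is the 250 bases before the RefSeq start in build GRCm38.p6, written 5′ to 3′ along the gene, with every CCAAT and TATAAA on either strand in capitals. The Dbx1 stretch is chr7:49636836-49637085 on the minus strand and the Olig2 stretch chr16:91225300-91225549 on the plus strand.
Dbx1: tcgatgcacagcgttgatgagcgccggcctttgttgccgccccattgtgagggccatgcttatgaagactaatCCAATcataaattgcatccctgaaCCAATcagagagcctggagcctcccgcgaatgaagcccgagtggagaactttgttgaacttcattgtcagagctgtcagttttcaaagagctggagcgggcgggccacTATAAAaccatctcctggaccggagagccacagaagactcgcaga
Olig2: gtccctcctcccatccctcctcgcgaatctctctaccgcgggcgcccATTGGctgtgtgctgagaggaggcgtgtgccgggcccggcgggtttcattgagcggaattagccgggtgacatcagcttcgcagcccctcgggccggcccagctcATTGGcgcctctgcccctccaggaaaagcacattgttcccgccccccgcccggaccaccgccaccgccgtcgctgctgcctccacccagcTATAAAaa
Both held 1 TATAAA and 2 CCAAT, which lie on the strand of the gene in Dbx1 and on the other strand in Olig2. TATAAA was found on either strand in 12.4% and CCAAT in 33.8% of the 32851 stretches of this length in the table. The TATAAA of Dbx1 began 45 bases before the start and that of Olig2 8 bases before it. GACCACCCA, a sequence that Gli proteins bind, was in 0.225% of all stretches and in none of the stretches of 9 genes looked up (Dbx1, Olig2, Fmn2, Depdc1a, D930028M14Rik, Ptch1, Hhip, Nkx2-9 and Prdm12). Of 12 genes looked up, 9 matched the table by symbol, and the others were Hes2, Gli1 and Olig1. These are descriptions of letters in a short window, and no factor's binding was measured there.

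Hes2 (chromosome 4, 152158867 to 152162469), which encodes a basic helix-loop-helix repressor of the Hes family, had the lowest p of the comparison. At 10 nM it had 287.8, 71.9 and 58.6 normalised reads on day 5 and 295.3, 0 and 391.9 on day 6, and at 100 nM it was 0 in all 6 libraries. It was detected in 5 of 6 libraries at the lower concentration, and the mean there was at least 63.9-fold above a limit of 3 reads per library. The fitted log2 change was −6.18 (SE 0.91, adjusted p = 2.17e-04), −6.75 on day 5 and −5.61 on day 6. Outside p2, Hes2 reached 1.02 normalised reads in p0-1 and 82.0 in pMN at 100 nM on these days, so 5 of the 6 p2 libraries at 10 nM lay above every p0-1 library. The count models did not call it: the adjusted p was 0.252 in edgeR and 0.652 in DESeq2.

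Fmn2 and Depdc1a did not overlap between the concentrations. Fmn2 (chromosome 1, 174501825 to 174822729), a formin that nucleates actin filaments, had 326.7, 118.1 and 437.8 on day 5 and 158.8, 614.3 and 1059 on day 6 at 10 nM, and 0, 5.54 and 104.1 on day 5 and 62.0, 2.66 and 0 on day 6 at 100 nM. The means were 452.4 ± 349 and 29.1 ± 44.0 (SD, n = 6), and the log2 change was −5.57 (SE 1.05, adjusted p = 0.00858). This call was lost in 14 of 24 alternatives, with an adjusted p of 0.0179 without the 2 libraries with few genes, 0.265 in edgeR and 0.49 in the 12 libraries alone. Its median was 481.1 in p0-1 at 10 nM (207.2 to 1097) and 245.1 in pMN at 100 nM (95.8 to 387.3), so 5 of the 6 p2 libraries at 100 nM lay below every library of either neighbour and the other, at 104.1, lay at the low end of pMN. Depdc1a (chromosome 3, 159495433 to 159529955), a gene of dividing cells, had 927.9, 594.4 and 1438 on day 5 and 907.1, 476.1 and 837.9 on day 6 at 10 nM. At 100 nM it had 242.7, 385.3 and 323.4 on day 5 and 0, 26.6 and 0 on day 6, the zeros being the libraries with few genes. The log2 change of −4.73 (SE 0.89, adjusted p = 0.00858) consisted of −1.57 on day 5 (adjusted p = 1.0) and −7.88 on day 6 (adjusted p = 7.7e-04). Without those 2 libraries it was −3.13 with an adjusted p of 0.53.

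D930028M14Rik (chromosome 7, 25152457 to 25156630) was called but had fewer reads than the 100 asked of a gene to be named, and is given because it completes the 5. It had 64.4, 59.7 and 0 on day 5 and 97.7, 99.9 and 169.9 on day 6 at 10 nM, and at 100 nM 1 read in all 6 libraries together (log2 change −5.29, SE 1.00, adjusted p = 0.00858). The call was lost in 17 of 23 alternatives, with an adjusted p of 0.126 without the 2 libraries with few genes, 0.265 in edgeR and 0.303 in the 12 libraries alone. The 5 genes with the next lowest p on the lower side were not called. Sf3b1, a subunit of the spliceosome, was the most even of them: 5079 to 6837 normalised reads at 10 nM and 2375 to 4622 at 100 nM, with no overlap (log2 change −0.84, SE 0.18, adjusted p = 0.0341). Zfp36l2, an RNA-binding protein that promotes mRNA decay, had 222.9 to 266.4 at 10 nM and 0 to 208.3 at 100 nM, the zeros being the 2 libraries with few genes (log2 change −3.47, adjusted p = 0.0459; −1.65 and 0.917 without them). Plekhg1 had adjusted p = 0.0459. Dcc, a netrin receptor, and Slc12a2, a chloride cotransporter, had adjusted p = 0.05 and 0.0548, and both were at 0 or 5.52 normalised reads at most in the 2 libraries with few genes. Without these the changes of Dcc and Slc12a2 were −5.16 and −1.61 (adjusted p = 0.424 and 0.986).

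**Figure D2:**
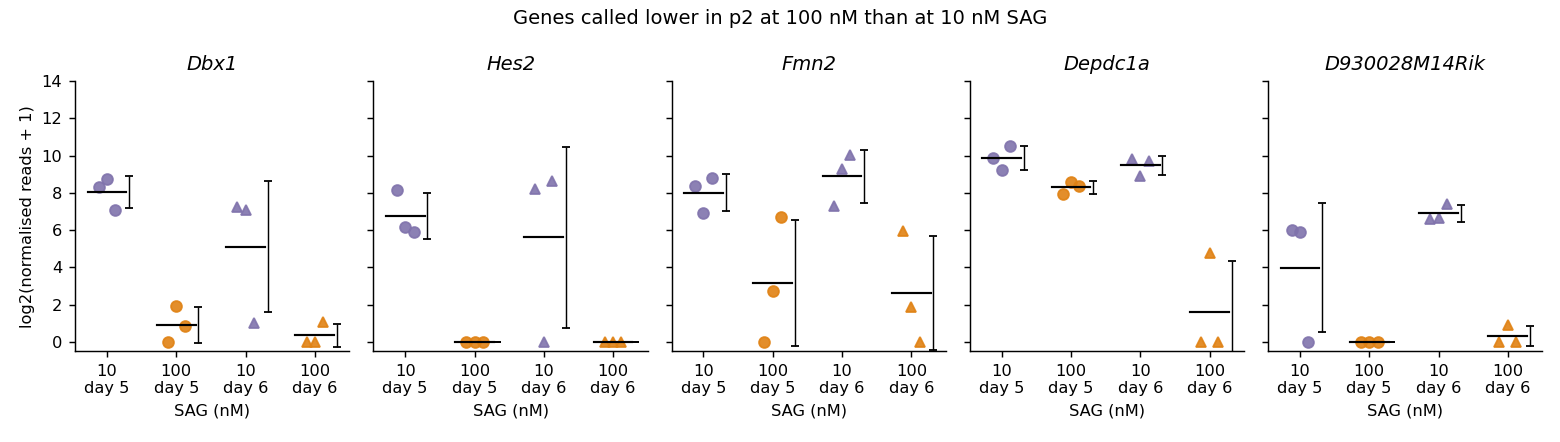
Normalised reads, as log2(value + 1), of the 5 genes called over both days in each p2 library, by SAG concentration (nM) and day. Points are libraries, horizontal lines the means and bars the SD of the 3 libraries; at 100 nM Hes2 is at 0 in all 6 libraries, and Depdc1a is at 0 in 2 libraries of day 6.

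The Shh target genes Ptch1, Gli1 and Hhip were higher at 100 nM in their fitted changes, and none of the 3 passed the test over all genes. Ptch1, the Shh receptor, had the clearest difference. At 10 nM it had 1500, 1990 and 1854 normalised reads on day 5 and 2578, 891.9 and 2043 on day 6. The libraries at 100 nM had 2381, 1920 and 3184 on day 5 and 5683, 3286 and 6540 on day 6. On day 6 each library at 100 nM lay above each at 10 nM, and on day 5 the ranges overlapped in 1 library. The means were 3832 ± 1857 and 1809 ± 569 (SD, n = 6), a ratio of 2.12. The highest values at 100 nM, 5683 and 6540, were those of the 2 libraries with few genes. The log2 change was 1.02 (SE 0.27, 95% interval 0.47 to 1.56) with an unadjusted p of 5.09e-04 and an adjusted p of 0.146. It was 0.46 on day 5 (adjusted p = 1.0) and 1.57 on day 6 (adjusted p = 0.0364), and the difference between the days had an adjusted p of 0.748. Without the 2 libraries with few genes the log2 change of Ptch1 over both days was 0.72.

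Gli1, the transcription factor that serves as the usual readout of the pathway, had 609.8, 645.5 and 435.6 on day 5 and 329.4, 620.1 and 195.4 on day 6 at 10 nM. Those at 100 nM had 821.3, 795.6 and 956.1 on day 5 and 936.4, 1182 and 612.8 on day 6. The groups were apart on day 5 and overlapped by 1 library on day 6. The means were 884.1 ± 191 and 472.6 ± 184 (SD, n = 6), a ratio of 1.87, and the log2 change was 0.99 (95% interval −0.29 to 2.27, adjusted p = 0.74). Hhip, a membrane protein that binds Shh, ran from 141.3 to 1853 at 10 nM and from 324.3 to 2635 at 100 nM (log2 change 0.66, SE 1.28, adjusted p = 0.954). Of the 3 genes, Ptch1 alone was past an unadjusted p of 0.05, where 2.21% of all genes were higher at 100 nM.

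In the populations on either side, Ptch1 had a median of 1167 normalised reads in p0-1 at 10 nM and of 4468 in pMN at 100 nM, and Gli1 of 161.6 and 1317. The medians of p2 at its 2 concentrations were not tested against these. The other steps of SAG in the series differ in concentration and are set beside that of p2 with no test between them. Ptch1 changed by 0.95 on the log2 scale in p0-1 from 0 to 10 nM (adjusted p = 0.405), by 0.11 in pMN from 100 to 500 nM (adjusted p = 1.0) and by −0.19 in p3 from 100 to 500 nM (adjusted p = 0.858). For Gli1 these changes were 2.19, 0.20 and −0.89, with adjusted p of 0.421, 1.0 and 0.652. In these steps 2 genes were called in p0-1, 0 in pMN and 4 in p3, against 681, 657 and 1627 at an unadjusted p below 0.05.

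Of 22 genes for receiving and passing on the signal, none was called and none was higher at an unadjusted p below 0.05. At that threshold 2 were lower (9.09%, beside 5.97% of all genes). The median log2 change was −0.27, against −0.14 for all genes. Without the 2 libraries with few genes, 0 of the 22 were lower and the median was −0.05, against −0.01. Scube2, a secreted protein that helps release Shh, had 1509, 397.0 and 812.5 on day 5 and 447.1, 265.9 and 1201 on day 6 at 10 nM. At 100 nM it had 993.6, 375.1 and 433.9 on day 5 and 0, 62.9 and 0 on day 6. The difference lay on day 6 (−7.03, adjusted p = 0.0391) and included both libraries with few genes at 0, but replicate 2, with 62.9, was also below every library at 10 nM. Over both days the log2 change was −3.78 (SE 1.24, adjusted p = 0.325), and −1.78 without the 2 libraries (adjusted p = 1.0). The other such gene was Kif7, a kinesin of the cilium, with a log2 change of −1.77 (SE 0.79, adjusted p = 0.537). Smo, which is the target of SAG, changed by −0.20 (95% interval from −0.66 to 0.25, adjusted p = 0.892). The coreceptors Boc, Cdon and Gas1 changed by −0.67, −1.31 and −0.07, and the transcription factors Gli2 and Gli3 by 0.88 and −0.57, all with adjusted p of 0.786 or above.

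On the ventral side, Olig2 and Olig1, the basic helix-loop-helix factors of pMN, were higher at 100 nM without passing the test. Olig2 had 0, 18.3 and 133.8 on day 5 and 162.4, 87.1 and 117.9 on day 6 at 10 nM, and 270.6, 130.3 and 549.1 on day 5 and 1385, 770.5 and 1452 on day 6 at 100 nM. The groups overlapped in 1 library of day 5 at 100 nM and were apart on day 6. The means were 759.6 ± 557 and 86.6 ± 65 (SD, n = 6), a ratio of 8.78. The log2 change was 3.78 (SE 1.12, 95% interval 1.54 to 6.03), with an unadjusted p of 0.00141 and an adjusted p of 0.24. In pMN at 100 nM the level was 1368 to 4753, so that 2 of the 6 p2 libraries at 100 nM reached the low end of that range. These, at 1385 and 1452, were the 2 libraries with few genes, and the rest ran from 130.3 to 770.5. Whether the Olig2 RNA came from cells of the pMN type inside the gate or from p2 cells was not tested. Olig1 was at 0 in 5 of 6 libraries at 10 nM and in 1 of 6 at 100 nM, where it reached 350.0 normalised reads (log2 change 4.57, SE 1.33, adjusted p = 0.23). Of the 9 listed genes of pMN and motor neurons, 2 were higher at an unadjusted p below 0.05, Olig1 and Olig2, and none was lower. The 2 are 22.2% of the list, beside 2.21% of all genes. Lhx3 and Isl1, LIM-homeodomain factors of motor neurons, had log2 changes of 2.15 and −0.34 (adjusted p = 0.663 and 0.982). The direction of Isl1 turned in 6 of 24 alternatives, with 1.14 without the 2 libraries with few genes and a call in DESeq2 (8.76, adjusted p = 1.26e-04). The summed level of the list was 82.8 to 439 at 10 nM and 297 to 2503 at 100 nM.

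Nkx2-9, a homeodomain gene of the p3 domain, was detected at more than 1 read in no library at 10 nM. At 100 nM it had 45.2, 53.6 and 97.0 on day 5 and 0, 0 and 99.4 on day 6, so that 4 of 6 libraries stood above all those at 10 nM. The log2 change was 3.72 (SE 0.96, unadjusted p = 3.45e-04, adjusted p = 0.134), 5.59 on day 5 and 1.85 on day 6. DESeq2 called it (6.95, adjusted p = 4.86e-06), edgeR did not (6.55, adjusted p = 0.0404), and without the 2 libraries with few genes the limma change was 2.61 (adjusted p = 0.825). The floor plate genes Foxa2 and Shh were each above 3 reads in at most 2 of the 12 libraries and changed by 0.39 and −0.77 (adjusted p = 0.991 and 0.927), directions that rest on 1 library each. Of 12 listed genes of p3 and the floor plate, 8 were tested. Only Nkx2-9 was higher at an unadjusted p below 0.05 (12.5%, beside 2.21% of all genes), and none was lower.

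**Figure D3:**
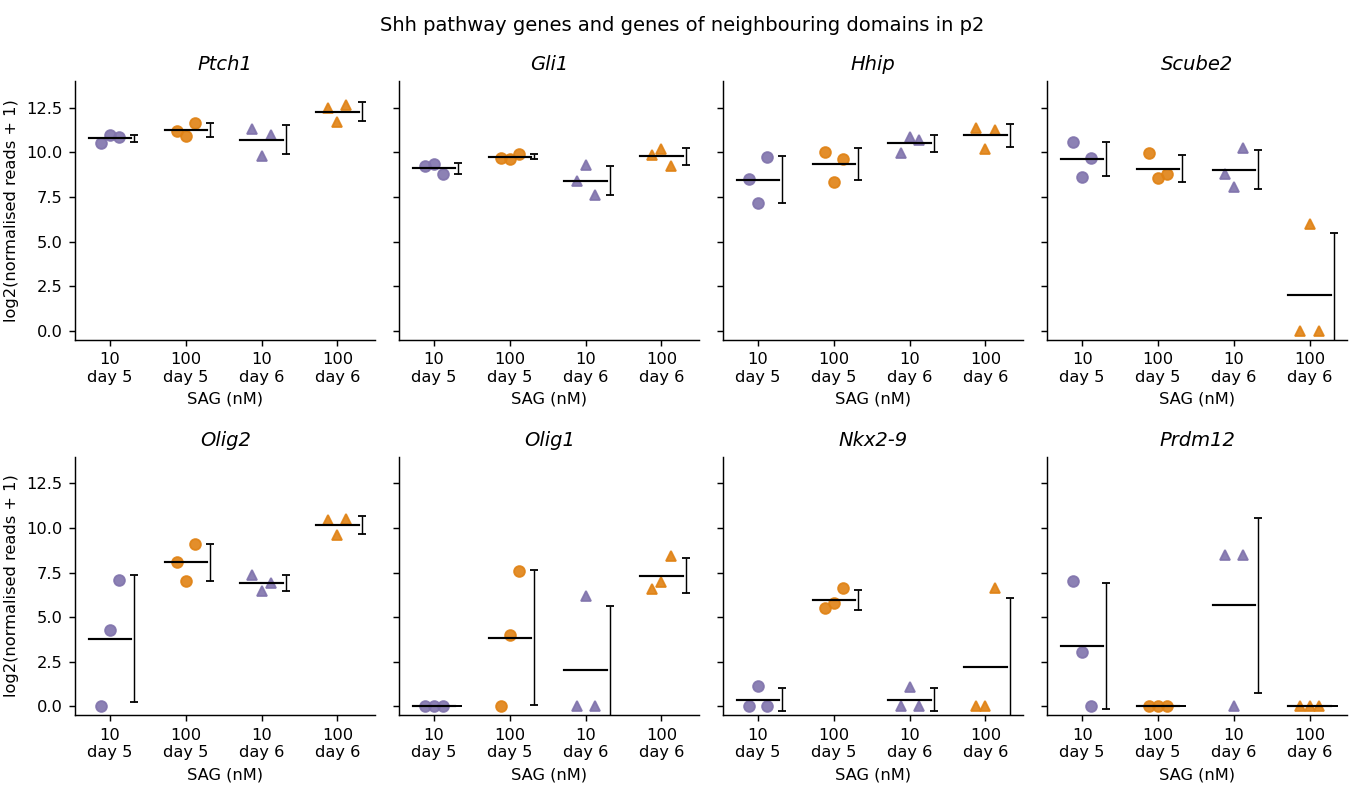
Normalised reads, as log2(value + 1), of the Shh target genes Ptch1, Gli1 and Hhip and of Scube2 (top) and of Olig2, Olig1, Nkx2-9 and Prdm12 (bottom) in each p2 library, by SAG concentration (nM) and day. Points are libraries, lines means and bars SD of 3 libraries (ending at the axis where they would pass below it); Prdm12 is at 0 in all 6 libraries at 100 nM and Olig2 there runs from 130.3 to 1452.

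Genes of p2 itself and of its V2 neurons were, as a list, without a call. Of 12 genes 9 were tested, and 1 was lower at an unadjusted p below 0.05 (11.1%, beside 5.97% of all genes). None was higher, and the median log2 change was −0.94. It was −0.40 without the 2 libraries with few genes. The Iroquois factors Irx3 and Irx5, which repress ventral fates, changed by −0.66 and −0.33 (adjusted p = 0.758 and 0.935). Irx3 was 1273 to 2750 at 10 nM and 456.0 to 2058 at 100 nM. Nkx6-2, which is used in p1 and more ventral cells, ran from 3.19 to 335.6 at 10 nM and from 4.77 to 998.2 at 100 nM (log2 change 2.10, SE 1.17, adjusted p = 0.663). Foxn4 and Vsx1, factors of cells leaving p2 for V2 fates, changed by −1.06 and −1.66 (adjusted p = 0.914 and 0.716). The gene past the unadjusted threshold was Bhlhe22 (log2 change −3.19, SE 1.51, adjusted p = 0.582), which had reads in 4 libraries at 10 nM and 1 at 100 nM.

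Among 21 genes of neurogenesis and Notch signalling, 20 were tested and none was called. Jag1 and Jag2, ligands of Notch, stood on opposite sides. Jag1 had 1282, 2304 and 2670 on day 5 and 829.4, 1903 and 1574 on day 6 at 10 nM, and 793.5, 716.1 and 2007 on day 5 and 252.9, 494.2 and 220.8 on day 6 at 100 nM. Its log2 change was −1.54 (SE 0.46, unadjusted p = 0.00143, adjusted p = 0.241), and on day 6 the groups did not overlap. Its change was −1.19 without the 2 libraries with few genes (adjusted p = 0.904). Jag2 was 13.3 to 352.0 at 10 nM and 214.7 to 604.0 at 100 nM (log2 change 1.53, SE 0.62, adjusted p = 0.462). Neurog1, a proneural factor, changed by −1.76 (SE 0.81, adjusted p = 0.562) and Neurog2 by −0.11 (adjusted p = 1.0). Dll1, the Notch ligand of newly formed neurons, was 1417 to 5919 at 10 nM and 1043 to 3635 at 100 nM, a log2 change of −0.70 (95% interval from −1.43 to 0.03, adjusted p = 0.623). The 13 neuronal genes had 0 calls, with 1 lower at an unadjusted p below 0.05 (Stmn2, adjusted p = 0.575). That is 7.69%, beside 5.97% of all genes. The summed level of the 13 was 2153 to 5481 at 10 nM and 1264 to 7749 at 100 nM.

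**Figure D4:**
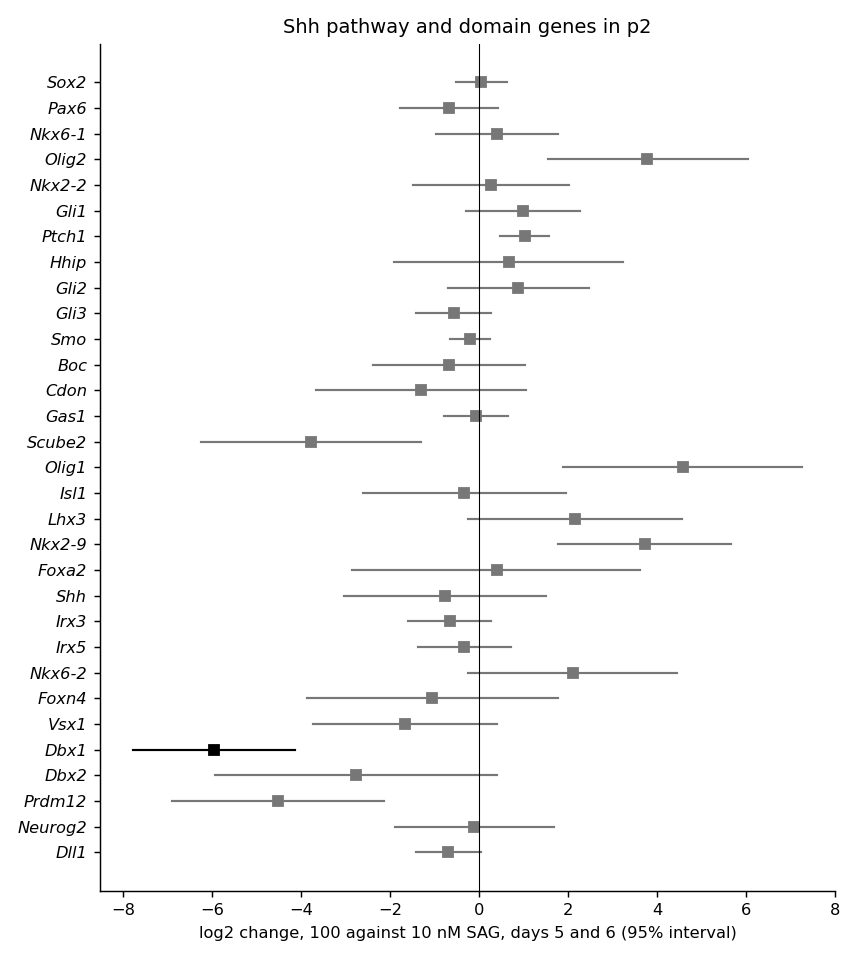
Log2 change between 100 and 10 nM SAG over days 5 and 6 (squares) with 95% intervals (lines) from the limma fit, for genes of the Shh pathway and of the ventral domains. Dbx1, in black, is the gene called among them, and the intervals of Ptch1 (0.47 to 1.56) and Olig2 (1.54 to 6.03) lie above 0 without passing over all genes.

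To describe p2 along the dorsoventral axis with genes chosen from other libraries, pMN was compared with p0-1 over days 5 and 6 (11 and 12 libraries). This called 134 genes, or 0.96% of those tested, 90 higher in pMN and 44 lower. No p2 library entered the means of that comparison, though p2 libraries share in its estimate of the spread. The pMN libraries had received 100 or 500 nM SAG and the p0-1 libraries 0 or 10 nM. Domain and SAG concentration therefore cannot be told apart in the choice of these genes. Of the 90 genes higher in pMN, 54 were higher and 34 lower in p2 at 100 nM, and 13 were higher at an unadjusted p below 0.05 (14.4%) and 1 lower, with a median log2 change of 0.23. Among all genes 2.21% were higher and 5.97% lower at that threshold, with a median of −0.14. By sign alone, 5640 of the 13964 tested genes were higher and 8200 lower in p2 at 100 nM. Of the 44 genes lower in pMN, 36 were lower and 5 higher in p2 at 100 nM, 11 were lower at an unadjusted p below 0.05 (25%) and none was higher, and the median was −0.54. Of all these genes only Dbx1 was called. Without the 2 libraries with few genes, 10 of the 90 were higher and 3 lower, and 6 of the 44 were lower, beside 2.27% of all genes higher and 3.01% lower, with medians of 0.33 and −0.45 against −0.01 for all genes. After quantile normalisation the medians were 0.41 and −0.47.

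Among the genes higher in pMN, those past the unadjusted threshold included the receptor gene Ptch1, Olig1, Olig2, Nkx2-9, the axon guidance ligand Slit3 and Rab34, a small GTPase of cilium assembly. Slit3 had 49.2 to 303.7 normalised reads at 10 nM and 95.2 to 1705 at 100 nM (log2 change 1.62, SE 0.48, adjusted p = 0.248), and Rab34 had a log2 change of 0.78 (SE 0.26, adjusted p = 0.339). Among the genes lower in pMN they included Dbx1, Dcc, Prdm12, Scube2, Jag1 and Id3. Id3, an inhibitor of basic helix-loop-helix factors that responds to BMP, had 1623, 1792 and 2312 on day 5 and 1740, 917.5 and 1588 on day 6 at 10 nM. The values at 100 nM were 1032, 920.3 and 1647 on day 5 and 108.6, 921.0 and 1020 on day 6 (log2 change −1.12, SE 0.31, adjusted p = 0.166). The groups overlapped, through the lowest library at 10 nM and the highest at 100 nM.

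On the log2 scale the position of each gene between its mean in p0-1 (0%) and its mean in pMN (100%) was computed for p2. For the 90 genes higher in pMN, the median position was 51.5% at 10 nM and 62.9% at 100 nM, with quartiles of 24.5 and 69.7% and of 45.7 and 76.7%. For the 44 genes lower in pMN it was 40.9% at 10 nM (21.1 to 72.0%) and 76.1% at 100 nM (50.5 to 106%). The positions at 100 nM were 56.5% for the 90 genes and 62.7% for the 44 without the 2 libraries with few genes. Averaged within a library, the log2 level of the 44 genes was 6.92 to 7.49 in the 6 p2 libraries at 10 nM and 5.34 to 6.72 in the 6 at 100 nM, so that the concentrations did not overlap. The lowest, 5.34 and 5.45, were the 2 libraries with few genes, and the other 4 ran from 6.01 to 6.72. The corresponding ranges were 7.58 to 8.83 in p0-1 at 10 nM and 5.24 to 6.43 in pMN at 100 nM. The 90 genes averaged 6.25 to 7.47 at 10 nM and 6.65 to 7.99 at 100 nM, and these ranges overlapped. These are descriptions, without a test over the lists, on a scale whose ends differ in both domain and SAG concentration.

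**Figure D5:**
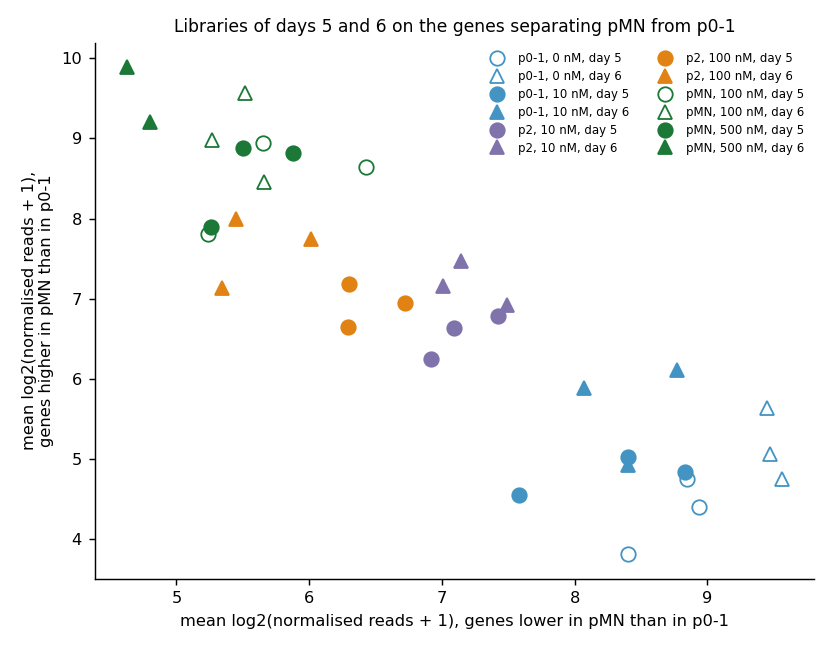
Each point is 1 library of days 5 and 6, placed by its mean log2(normalised reads + 1) over the 44 genes lower in pMN than in p0-1 (horizontal) and over the 90 genes higher in pMN (vertical); circles are day 5 and triangles day 6. The p2 libraries (6.25 to 7.99 on the vertical axis) lie above those of p0-1 at 10 nM (4.55 to 6.11), and those at 100 nM (5.34 to 6.72 on the horizontal axis) lie to the left of those at 10 nM (6.92 to 7.49).

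Outside the dorsoventral genes, no member of the other listed pathways was called. In the retinoic acid list, 2 of 11 tested genes (18.2%) were lower at an unadjusted p below 0.05, beside 5.97% of all genes, and none was higher. It was 1 of 11 without the 2 libraries with few genes (9.09%, beside 3.01%). Dhrs3, a retinaldehyde reductase, had 1141, 686.9 and 283.0 on day 5 and 1286, 1646 and 2102 on day 6 at 10 nM, and at 100 nM 330.6, 122.0 and 177.5 on day 5 and 260.1, 1010 and 441.7 on day 6, below the libraries at 10 nM on day 6 (log2 change −1.70, SE 0.59, adjusted p = 0.371). Cyp26b1, an enzyme that degrades retinoic acid, changed by −2.48 (SE 1.19, adjusted p = 0.593). In the BMP list 1 of 12 tested genes was lower (Id3), in the Wnt list 1 of 16 (Axin2, log2 change −2.51, SE 0.96, adjusted p = 0.428) and in the FGF list 0 of 12. Of 21 cell cycle genes, 1 was higher (Ccnb2, 0.59) and 2 were lower (Aurka, −0.61, and Ccnd1, −1.10), none called, with a median of 0.05. For the 77 tested ribosomal protein genes the median was 0.04, with 2 higher and none lower at that threshold. Of 21 tested Hox genes 1 was lower at an unadjusted p below 0.05, and of 12 neural progenitor genes 1 (Cdh2, −0.48). Of 7 immediate early and stress genes none was past it (median 0.73).

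In the summed level of each list, fibroblast genes reached 477 normalised reads at 10 nM and 392 at 100 nM, endothelial genes 210 and 341, neural crest genes 159 and 110, neuromesodermal and mesodermal genes 279 and 284, and pluripotency genes 30.8 and 97.4. The 3 endoderm genes had at most 118 at 10 nM and 0 at 100 nM. Dorsal progenitor genes summed to at most 98.4 at 10 nM and 777 at 100 nM, the latter from Msx2 in replicate 3 of day 6, a library with few genes. Of the 14 dorsal genes 9 were at 0 in all 12 libraries, Pax3 and Pax7 among them, as were T, the defining gene of neuromesodermal progenitors, Sox10 of neural crest and Sox17 of endoderm. None of these lists held a gene past an unadjusted p of 0.05, and of the neural crest and endoderm lists no gene had enough reads to be tested. Without the 2 libraries with few genes, 1 of 3 tested fibroblast genes (Col1a2, 3.66) and 1 of 3 tested pluripotency genes (Klf4, 3.30) were higher at that threshold, and the fibroblast median moved from −0.03 to 2.46. The part of these cells in the results was not tested.

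The 6 libraries at 100 nM lay entirely above the 6 at 10 nM for 21 genes (0.15% of those tested) and entirely below for 26 genes (0.186%). Of the genes described here, 6 were among them: Senp3 above, and Pax6, Fmn2, Depdc1a, Sf3b1 and Zfp36l2 below. Senp3, a SUMO protease, had 394.1 to 641.9 normalised reads at 10 nM and 772.5 to 1263 at 100 nM (log2 change 1.02, SE 0.25, adjusted p = 0.0859). No gene was called higher with limma, while DESeq2 called 207, Senp3 and Xlr3a among them (adjusted p = 4.08e-04 and 1.23e-05). The other 4 of lowest p on the higher side were Tmem121 (2.77, adjusted p = 0.0548), Vmp1, a membrane protein of autophagy (0.74, adjusted p = 0.08), Tmem135 (2.24, adjusted p = 0.0859) and Xlr3a (5.34, adjusted p = 0.0859). Xlr3a belongs to a family of near-identical copies on chromosome X, among which the counting could have split reads.

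Within single days, 0 genes were called on day 5 (0% of those tested) and 455 had an unadjusted p below 0.05, while 21 genes were called on day 6 (0.15%) and 1700 had an unadjusted p below 0.05. The 21 were 1 higher and 20 lower at 100 nM. The difference between the days was called for 0 genes (0%), with 923 at an unadjusted p below 0.05, so a larger effect on day 6 is not shown. On recovered reads edgeR called 0 genes on day 5 and 0 for the difference, and DESeq2 325 and 583. Of the 20 genes lower on day 6, 16 had at most 3 reads in replicate 1 and 15 in replicate 3 at 100 nM, the libraries with few genes, and 2 in replicate 2. None of the 20 had so few in any library at 10 nM. Ajap1, an adherens junction protein, was at 0 in all 3 libraries at 100 nM (357.6, 55.7 and 172.0 at 10 nM, log2 change −7.25, adjusted p = 0.0047). Tax1bp3, a PDZ protein, was at 0, 11.5 and 0 (358.8, 502.9 and 205.0 at 10 nM, −7.17, adjusted p = 0.00839). Sf3b1, by contrast, had 2510, 2770 and 2375 at 100 nM against 5924, 5422 and 6837 at 10 nM, with a log2 change of −1.24 (adjusted p = 0.00631) in which the 2 libraries did not stand apart. Tmem121, the gene that was higher, had 345.9, 410.0 and 316.9 at 100 nM against 168.2, 0 and 5.31 (log2 change 5.12, adjusted p = 0.00145). Without the 2 libraries, a comparison of 1 library with 3 whose spread comes from other groups, 16 genes were called on day 6 and 0 of the 21 were among them, which in so small an arm does not show that their differences were absent.

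The count of calls over both days varied with the tool. On reads recovered from the deposited values edgeR called 1 gene and DESeq2 637, of which 207 were higher and 430 lower, and 3 of the 5 genes were among those of DESeq2. Both count models left out replicate 2 of pMN at 500 nM on day 5, which the limma fit kept. A fit of the 12 libraries alone called none.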

How the data were processed

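Bulk RNA sequencing of sorted, fixed cells was analysed for 12 p2 libraries within the 65 of the series. Per the study's methods, the authors aligned reads with STAR in an nf-core pipeline to mm10 with spike-ins, counted them per gene with featureCounts over refGene, ignoring duplicates, and left out libraries that failed quality checks. Ignoring duplicates lowers abundant genes most, and strand use in counting is not given in the sources used here. The deposited values are a signal: counts that the authors divided by a size factor per library. Of 834400 values above 0, 100% were whole multiples of the worth of 1 read (tolerance 0.01), so reads could be recovered. The deposited annotation, whose positions are of unit other, gave coordinates.

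Differences were tested with limma (version 3.58.1, R 4.3.3) on log2(value + 1), over the 13964 of 25239 genes whose mean over all libraries reached 10. On this scale changes of genes with few reads or with zeros in some libraries can come out smaller or larger than in a count model. Dbx1 had −5.95 against −7.97 in DESeq2, and Fmn2 −5.57 against −3.92. The fit had 25 group means over 65 libraries (residual degrees of freedom 40, prior 7.43) and a variance trend. Log2 changes had a median SE of 0.833 over both days and 1.18 for a single day, which sets the precision. Calls needed an adjusted p below 0.01 and more than 2-fold. Intervals and limits on read counts cover counting error only, since reads carry no molecular identifiers. Motif letters were searched in RefSeq start windows.

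The members, gene lists and tests were chosen with earlier results of these data known. Named genes were the sorted proteins, Shh targets and a list of pathway and domain genes whatever their values, up to 12 called genes per direction with a mean of at least 100 at a concentration and the same sign on both days (the 5 of lowest p where fewer than 5 were called), up to 3 called per direction for each day, and members of other lists that passed the test with up to 3 others. Same-numbered replicates deviated together weakly at most, with correlations of −0.018 to 0.061, against −0.045 to 0.031 for other pairs. Numbers were not used as pairs in the main fit, and replicate blocks were among the alternatives. The alternatives were a pseudocount of 10, other filters, quantile and TMM scaling, the 12 libraries alone, replicate blocks, array weights, DESeq2 1.42.0, edgeR 4.0.16, an adjusted p of 0.05, and leaving out libraries. The test was run on counts simulated around group means, without libraries of few detected genes. That run does not cover calls that rest on such libraries. Some results are not reported here.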

Additional observations from a re-analysis of the deposited data

Results flagged for a closer look

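Nkx2-9, the homeodomain gene of p3, had a mean of 181 normalised reads in the 2 p2 libraries of day 4 at 100 nM SAG (138.1 and 224.0), where the single day 4 library at 10 nM was at 0. It was singled out because day 4 was not part of the comparison and the library at 10 nM had no read. With 1 library at 10 nM the difference was not tested. In the same libraries Foxa2 had 176.5 and 338.2 against 70.5, Olig2 188.4 and 167.7 against 52.6, and Ptch1 3509 and 5901 against 2141. Dbx1, Hes2 and Cyp26b1 were at 0 in all 3 of them. Groups of 3 libraries are too small for a test of outlying libraries.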

How the results depend on the processing

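Over both days (5 genes called), the count was 1 with a minimum mean of 100, 3 after quantile normalisation, 0 in the 12 libraries alone, 3 with the replicate block within day (6 with the replicate block over all days, all 5 among them), 3 with array weights, 9 at an adjusted p below 0.05, 637 in DESeq2 and 1 in edgeR. On day 5 (0 called) it was 1 with a pseudocount of 10, 7 without a filter, 1 with array weights, 2 at an adjusted p below 0.05 and 325 in DESeq2. On day 6 (21 called) it was 13 with a pseudocount of 10, 10 after quantile normalisation (3 higher and 7 lower), 1 in the 12 libraries alone, 5 with array weights, 109 at an adjusted p below 0.05, 730 in DESeq2 and 0 in edgeR. It was 27 with either replicate block (4 or 5 higher), and the block over all days changed no other count. Over both days that block gave Zfp36l2 a call (limma, adjusted p = 0.00932) and Ptch1 an adjusted p of 0.0511. Same-numbered libraries correlated best with each other for every number on day 5 but not on day 6, as a hint from the data only. The difference between days (0 called) gave 583 genes in DESeq2 and, in an alternative chosen after seeing the data, 4 without both libraries with few genes. The cause of these shifts was not tested. Leaving out 1 library at a time gave 2 to 60 calls over both days, 0 to 2 on day 5, 3 to 287 on day 6 and 0 to 47 for the difference. The highest values, 60, 287 and 47, came without replicate 2 at 100 nM on day 6, which leaves the 2 libraries with few genes, and on day 6 the count was 59 without replicate 1 at 100 nM, and 11, 4 and 3 without replicates 1, 2 and 3 at 10 nM. Over both days every library of day 5 and replicates 3 at 10 nM and 1 at 100 nM of day 6 lowered the count to 2 or 3. Among 48 named genes 7 changed sign somewhere, none of them called with limma (DESeq2 called Isl1). Isl1 was 0.26 after quantile normalisation, 0.22 with array weights, 8.76 in DESeq2, 1.99 in edgeR, 1.13 without both libraries with few genes and −1.08 to 0.64 without single libraries. Foxn4 was 0.56 in DESeq2, 0.55 in edgeR, 0.23 without both and −1.75 to 0.28 without single libraries. Sox2 was −0.042 with array weights, −0.18 without both and −0.11 to 0.15 without single libraries. Without single libraries Neurog2 was −0.51 to 0.16, Gas1 −0.18 to 0.038, Foxa2 −0.80 to 1.18 and Nkx2-2 −0.19 to 0.49. Dbx1 lost its call in 2 of 24 alternatives, Hes2 in 3 of 23, Fmn2 in 14 of 24, Depdc1a in 18 of 24 and D930028M14Rik in 17 of 23. Depth limits genes with few reads, such as Nkx2-9 and Prdm12, whose zeros allow up to 3 reads per library.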
